A study of Mus musculus with 15 samples.

Results

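The hippocampus of SAMP8 mice that had exercised was compared with that of SAMP8 mice that had remained sedentary, gene by gene and over families of genes of related function. The members were the 10 arrays whose titles name SAMP8: 5 from exercised SAMP8 and 5 from sedentary SAMP8, out of 15 in the series. The other 5 were from sedentary SAMR1 and entered only 1 alternative fit, in which all 15 arrays shared the estimate of the spread. All mice were adult females. SAMP8 is an inbred line selected for accelerated senescence, and SAMR1 is the senescence-resistant line it is usually set against; both SAMP8 groups therefore carry the same background, and the exercise is the 1 factor the labels give between them. The labels leave out the kind, duration and intensity of the exercise and the age of the mice. RNA of the frozen hippocampus was labelled with Cy3 and hybridised to 1-colour arrays. The labels call the 5 arrays of a group biological replicates without naming the animals behind them, and every p-value therefore refers to the spread among these samples, which may be technical. Whole tissue holds many cell types, and fewer cells of a type cannot be told apart from less RNA per cell.

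The hippocampus forms new memories, and its dentate gyrus is among the few places where neurons are still born in the adult rodent. In rodents, running is known to raise the neurotrophin BDNF there, to support newborn neurons and to act on vessels, glia and mitochondria. Known mediators include muscle-derived signals set off by the coactivator PGC-1alpha (Ppargc1a), growth factors of the blood such as IGF-1 and VEGF, and the activity of the neurons themselves.

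Values were obtained for 16401 named genes on all 10 arrays, as log2 of the deposited intensity. The median intensity was between 207.75 and 208.65 on these arrays. The 14 pan-neuronal markers had a mean log2 intensity of 13.96 ± 0.07 (SD, n = 5) on exercised and 13.96 ± 0.07 on sedentary arrays. Markers of the hippocampal subfields, such as Prox1 of dentate granule cells (10.71 ± 0.33 and 10.77 ± 0.27) and Wfs1 of CA1 neurons (13.63 ± 0.33 and 13.20 ± 0.20), were also well above the floor of 5.29, so the labelled tissue had its defining markers in both groups. The exercised arrays differed more among themselves. The median SD of a gene was 0.195 in exercised and 0.168 in sedentary arrays, and 59.9% of the genes had the larger SD in the exercised group. Each exercised array correlated slightly less with the other exercised arrays (mean r across genes from 0.988 to 0.990) than with the sedentary arrays (0.990 to 0.992). These correlations are across genes, which are not independent replicates.

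Both arrays numbered 3 went against their group in the genes of the widest difference. Rian, a long noncoding RNA of an imprinted locus, had log2 intensities of 10.96, 11.25, 8.15, 11.63 and 10.16 on exercised replicates 1 to 5, against 7.87, 8.73, 11.43, 8.07 and 8.19 on sedentary replicates 1 to 5. Rab5c, a small GTPase of early endosomes, had 11.81, 10.93, 8.05, 9.66 and 9.57 on exercised arrays, against 7.80, 8.33, 12.50, 7.79 and 8.07 on sedentary arrays. In both genes exercised replicate 3 lay among the low sedentary values and sedentary replicate 3 among the high exercised ones, so the groups overlapped. The mirror pattern was seen in Metrn, which encodes the neurotrophic factor meteorin, with 9.59, 9.41, 11.63, 10.61 and 9.75 on exercised arrays against 11.54, 12.18, 9.41, 11.79 and 11.82 on sedentary arrays. Ppp1r37, a regulatory subunit of protein phosphatase 1, and Prmt1, the main asymmetric arginine methyltransferase, followed Metrn, while Camk2a and Dlg4, described below with the synapse, followed Rian. These genes were chosen for their large differences, which are given as a description.

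The 10-array differences of these genes were 1.57 ± 0.75 (SE) for Rian, 1.10 ± 0.92 for Rab5c, -1.15 ± 0.54 for Metrn, -0.95 ± 0.50 for Ppp1r37 and -0.87 ± 0.57 for Prmt1. Without both arrays numbered 3, an alternative chosen after seeing the data, they were 2.79 ± 0.30, 2.49 ± 0.45, -1.99 ± 0.25, -1.68 ± 0.31 and -1.69 ± 0.37. No gene was called in that fit either, the lowest adjusted p by limma being 0.0914, for Rian. Other features of the array give a mixed picture of these genes. The other feature of Metrn differed by -1.21 and that of Ppp1r37 by -0.76, but the other features of Rian differed by only -0.04 and 0.12. Not every gene of wide difference had this pattern. Malat1, a nuclear long noncoding RNA, had 12.96, 14.52, 15.29, 14.43 and 13.11 on exercised arrays, against 15.09, 14.35, 14.93, 15.11 and 15.15 on sedentary arrays, with exercised replicates 1 and 5 low (-0.87 ± 0.39). Scube1, a secreted protein of vessels that is also among the neocortex markers used here, differed by 0.58 ± 0.22, with sedentary replicate 5 within the exercised range. What set the arrays numbered 3 apart was not tested. Whether the 2 were exchanged between the groups was not tested either; an exchange would alter every difference and interval given here. The labels were kept as given, and all 10 arrays are kept in the values that follow unless stated.

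**Figure D1:**
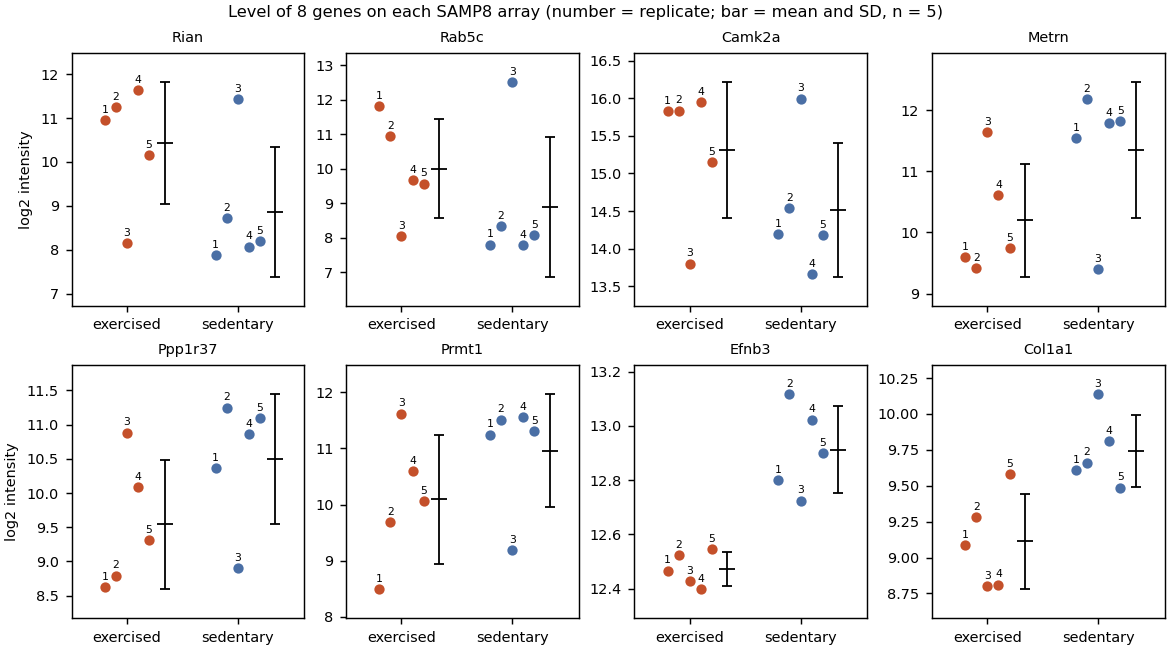
Log2 intensity (vertical axis) of 8 genes on each SAMP8 array, exercised at the left and sedentary at the right of each panel, with the replicate number above each point and the mean ± SD (n = 5) as a bar. Exercised replicate 3 lies with the sedentary arrays, and sedentary replicate 3 with the exercised arrays, in Rian, Rab5c, Camk2a, Metrn, Ppp1r37 and Prmt1, whereas in Efnb3 all 5 exercised arrays lie below all 5 sedentary arrays.

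No gene passed the test between exercised and sedentary SAMP8. At an adjusted p under 0.05 by limma with Benjamini-Hochberg adjustment, 0 of 16401 genes (0%) were called, and the lowest adjusted p was 1. At an unadjusted p under 0.05 there were 500 genes (3.05%), 203 higher (1.24%) and 297 lower (1.81%) in exercised mice, where an even spread of p-values would give 820.05. At an unadjusted p under 0.01 there were 66 genes against 164.01, and under 0.001 there were 2 against 16.40. All 5 arrays of a group lay above all 5 of the other in 72 genes (0.439%), 36 higher and 36 lower in exercised mice (0.219% each). The count of 500 was 309 without sedentary replicate 2 and at most 747 with any other array left out. A further 6511 features without a single gene symbol gave 0 calls, with 166 at an unadjusted p under 0.05.

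The same fit gives the sizes of difference that the data leave room for. The 95% interval of a gene reached a median of 0.26 to either side of its difference on the log2 scale, which is 1.19-fold. For 14835 genes (90.5%) the whole interval lay within a 1.5-fold difference in either direction, and for 16166 (98.6%) within a 2-fold difference. A larger difference lay outside the interval of those genes, each taken by itself. No interval lay wholly beyond 1.5-fold in either direction. By level, the share of genes with an interval within 1.5-fold was 88.2% in the dimmest of 4 equal classes of genes, 84.3% and 92.9% in the middle classes and 96.4% in the brightest. Mean levels in the dimmest class ran from the floor of 5.29 to 6.56. Differences near the floor depend on it, so a narrow interval there does not exclude a larger difference in the transcript. The measured differences themselves exceeded 2-fold in 3 genes higher and 3 lower, and 1.5-fold in 15 higher and 40 lower. Over all genes the median difference was 0.01, and 54.2% of the differences were above 0 and 45.8% below.

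**Figure D2:**
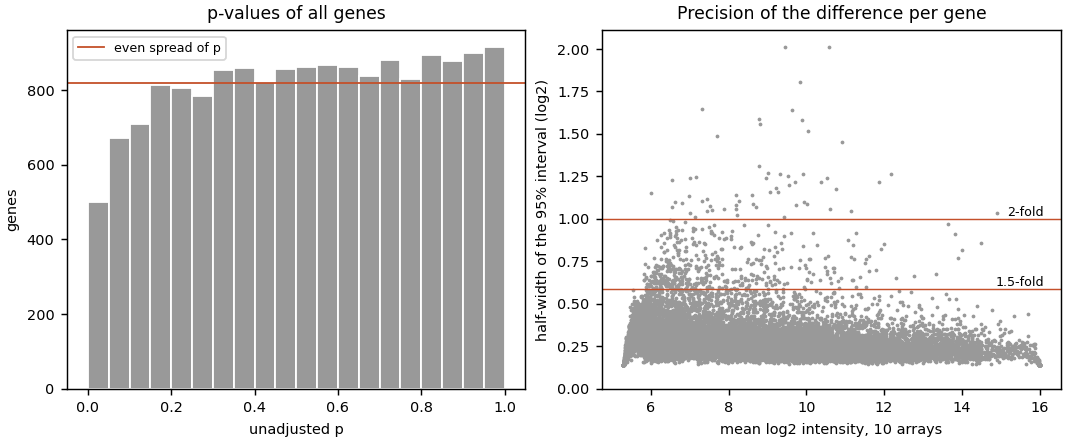
Left, the number of genes (vertical axis) by unadjusted p, with the level an even spread of p would give as a line; the bar of lowest p holds 500 genes, below the line at 820.05. Right, for each gene, how far the 95% interval extends to either side on the log2 scale (vertical axis) against the mean log2 intensity over the 10 arrays, with lines at 1.5-fold and 2-fold.

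Among the more strongly expressed genes, Efnb3 had the lowest p. It encodes ephrin-B3, a membrane ligand of Eph receptors that guides axons and acts at synapses. Its log2 intensities were 12.47, 12.52, 12.43, 12.40 and 12.55 on exercised arrays, against 12.80, 13.12, 12.72, 13.02 and 12.90 on sedentary arrays. The groups did not overlap, and the exercised arrays were close together. The difference was -0.44 ± 0.09 (SE; 95% interval -0.64 to -0.25), with an unadjusted p of 0.000375 and an adjusted p of 1 by limma. The array has 1 feature for Efnb3. Of the 21 ephrins and Eph receptors measured, 10 differences were above 0 and 11 below, with a median of 0.00. Efnb3 was the 1 member at an unadjusted p under 0.05, where 1.81% of all genes were so on the lower side.

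The other low-p genes with lower values in exercised mice included matrix, glial and growth factor genes. Col1a1, a chain of type I collagen, had 9.09, 9.28, 8.80, 8.81 and 9.58 on exercised arrays, against 9.61, 9.66, 10.14, 9.81 and 9.49 on sedentary arrays. Exercised replicate 5 overlapped the sedentary arrays; the difference was -0.63 ± 0.17, and all 10 other features of Col1a1 were also lower (-0.61 to -0.27). Fabp7, the brain fatty acid binding protein of radial glia and astrocytes, had 11.38, 11.94, 11.56, 11.53 and 11.95 on exercised arrays, against 12.50, 12.29, 11.78, 12.39 and 12.25 on sedentary arrays. Sedentary replicate 3 was within the exercised range, and the difference was -0.57 ± 0.15. Pdgfa, the growth factor of oligodendrocyte precursors, had 13.53, 13.43, 13.40, 13.49 and 13.47 on exercised arrays, against 13.66, 13.76, 13.79, 13.62 and 13.70 on sedentary arrays, a difference of -0.24 ± 0.07 with no overlap. Its other feature differed by -0.03. Smarca5, the ATPase of ISWI chromatin remodellers, Tm4sf1, an endothelial membrane protein, and Rab31, a GTPase of vesicle traffic, were also lower without overlap, by -0.33 ± 0.09, -0.36 ± 0.10 and -0.30 ± 0.09.

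The remaining genes of that kind were Ahnak, a large scaffold protein (-0.65 ± 0.19), Uggt1, the glycoprotein folding sensor of the endoplasmic reticulum (-0.43 ± 0.12), Tob2, an antiproliferative protein (-0.51 ± 0.15), Tnrc18 (-0.53 ± 0.15), Col1a2 (-0.67 ± 0.20), Klrb1c, a natural killer receptor (-0.70 ± 0.22), Id3, an inhibitor of helix-loop-helix factors (-0.34 ± 0.11), and Hspa9, the mitochondrial Hsp70 (-0.27 ± 0.08). The other features of Uggt1, Tob2 and Rab31 were on the other side of 0, from 0.05 to 0.13 for Uggt1, 0.03 for Tob2 and 0.00 for Rab31. Those of Smarca5 and Ahnak lay on both sides, from -0.26 to 0.10 for Smarca5 and from -0.71 to 0.27 for Ahnak. Each of these genes had an adjusted p of 1 by limma.

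In the other direction, Wipf3, a binding partner of WASP that takes part in actin assembly, had 14.73, 14.87, 15.11, 14.90 and 14.71 on exercised arrays, against 14.26, 14.38, 14.47, 14.66 and 14.47 on sedentary arrays. E2f3, a transcription factor of the cell cycle, had 11.63, 11.36, 11.31, 11.38 and 11.44 on exercised arrays, against 11.19, 10.83, 11.12, 10.95 and 11.16 on sedentary arrays. Neither gene overlapped between the groups, and the differences were 0.42 ± 0.10 and 0.38 ± 0.10. The other features of E2f3 differed by -0.12 and 0.17. Without overlap, Ankmy2 (0.28 ± 0.08), Ankrd34a (0.35 ± 0.10), the ubiquitin ligase gene Herc3 (0.29 ± 0.09), the POU factor gene Pou6f1 (0.27 ± 0.08), the tyrosylprotein sulfotransferase gene Tpst2 (0.24 ± 0.08) and Ppp2r3d, a regulatory subunit of protein phosphatase 2A (0.30 ± 0.11), were higher too. With overlap, the values were 0.40 ± 0.12 for Mir22hg, the host transcript of miR-22, 0.39 ± 0.12 for the phospholipase gene Plch2, 0.29 ± 0.09 for the receptor phosphatase gene Ptprj, 0.37 ± 0.12 for Cd34 of vessels, 0.28 ± 0.10 for Vstm2l, 0.26 ± 0.09 for the ganglioside synthase gene B4galnt1 and 0.43 ± 0.16 for Wfs1. The other features of Plch2 (-0.03) and Ptprj (-0.14) were on the other side of 0. The adjusted p of each was 1 by limma.

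The best-known gene of the exercised rodent hippocampus, Bdnf, had log2 intensities of 11.41, 10.90, 11.16, 11.56 and 10.37 on exercised arrays, against 10.38, 10.63, 10.82, 10.57 and 11.33 on sedentary arrays. Exercised replicates 1 to 4 lay above sedentary replicates 1 to 4, while replicate 5 was low among the exercised and high among the sedentary arrays. The difference was 0.34 ± 0.23 (SE), 1.26-fold, with a 95% interval of -0.16 to 0.83 and an unadjusted p of 0.169 by limma. The 10 other features of Bdnf differed by 0.31 to 0.41; whether these are repeat spots of 1 probe is not stated in the files or labels. The difference was 0.21 without exercised replicate 4 and 0.51 without exercised replicate 5. With the meningeal and choroid plexus marker means of each array as covariates it was 0.04. Ntrk2, the BDNF receptor TrkB, differed by -0.11 ± 0.13 (interval -0.38 to 0.16). Gdnf, a neurotrophic factor that was near the floor, had 5.80, 5.84, 5.72, 5.80 and 5.75 on exercised arrays, against 5.31, 5.57, 5.81, 5.36 and 5.29 on sedentary arrays. Among 7 neurotrophins and receptors 3 differences were above 0 and 4 below.

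The genes of circulating and muscle-derived signals had narrow intervals around 0. Ppargc1a differed by 0.03 (interval -0.23 to 0.28), and Fndc5, the precursor of irisin, by 0.15 (interval -0.08 to 0.38). Igf1 differed by -0.04 (interval -0.25 to 0.18), and Vegfa by 0.09 (interval -0.20 to 0.37). In none of these genes was a 1.5-fold difference within the interval. Sirt1, an NAD-dependent deacetylase that activates PGC-1alpha, had 8.46, 8.45, 8.30, 8.63 and 8.48 on exercised arrays, against 8.73, 8.67, 8.77, 8.53 and 8.60 on sedentary arrays, a difference of -0.20 ± 0.08 (unadjusted p 0.0391, adjusted p = 1 by limma). Over the 18 genes of mitochondrial biogenesis the median difference was 0.02, with 10 above 0 and 8 below. Among 20 growth factors and receptors, 7 were above 0 and 13 below. The most negative of those 13 was Igf2, which is abundant in the meninges and choroid plexus, at -0.65 ± 0.35. Igf2 had 10.54, 11.11, 11.46, 10.69 and 12.29 on exercised arrays, against 12.32, 12.35, 12.09, 11.75 and 10.85 on sedentary arrays.

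Immediate early genes, which neurons transcribe within minutes of firing, were mostly lower in exercised mice by small and variable amounts. Of 25 members 17 differences were below 0 and 8 above, with a median of -0.15, against a median of 0.01 over all genes. One member, Klf4, was at an unadjusted p under 0.05 (1.81% of all genes were so on the lower side). Klf4 had 10.51, 10.29, 10.73, 10.72 and 10.68 on exercised arrays, against 10.83, 10.87, 10.73, 10.75 and 11.12 on sedentary arrays, so that the groups did not overlap but met at 10.73. Arc, whose protein acts at activated synapses, differed by -0.28 (interval -0.81 to 0.25), Fos by -0.23 (-0.81 to 0.35), Npas4 by -0.25 (-0.75 to 0.25) and Egr1 by 0.05 (-0.28 to 0.38). Fos had 7.52, 7.50, 7.54, 8.72 and 8.15 on exercised arrays, against 7.85, 8.64, 7.66, 7.89 and 8.53 on sedentary arrays, with high and low arrays in both groups. The list's mean was 9.86 ± 0.18 (SD, n = 5) on exercised and 9.96 ± 0.23 on sedentary arrays. Its median difference was between -0.18 and -0.09 when single arrays were left out, -0.09 being without sedentary replicate 2 and also without exercised replicate 1. It was -0.21 without both arrays numbered 3, and -0.28 with the meningeal and choroid plexus marker means of each array as covariates.

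**Figure D3:**
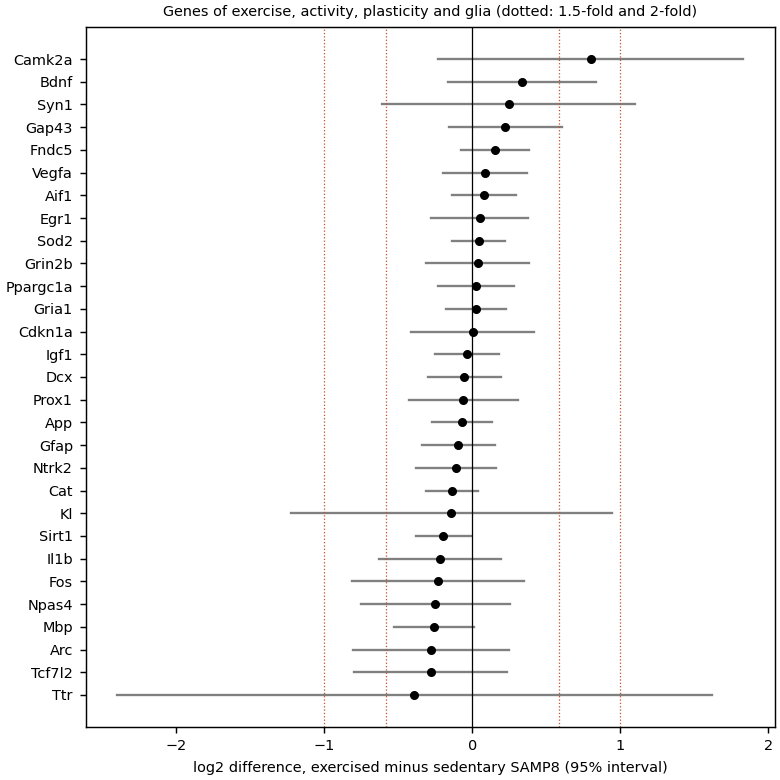
Log2 difference, exercised minus sedentary SAMP8 (horizontal axis), with its 95% interval for 29 genes of exercise, activity, plasticity and glia; dotted lines mark 1.5-fold and 2-fold. The interval of Sirt1 alone among them stays clear of 0, and the choroid plexus genes Ttr and Kl have the widest intervals together with Camk2a and Syn1.

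Genes of adult neurogenesis showed no common direction, with 14 of 24 above 0, 10 below and a median of 0.02. Dcx, the microtubule protein of newborn neurons, differed by -0.05 (interval -0.30 to 0.19), and Prox1, the granule cell factor, by -0.06 (-0.43 to 0.31). Pcna, the replication clamp of dividing cells, had 11.70, 11.58, 11.69, 11.86 and 11.84 on exercised arrays, against 11.79, 12.08, 12.02, 11.89 and 11.90 on sedentary arrays, a difference of -0.20 ± 0.09. Among 26 subfield markers 17 were above 0, and 3 of them were at an unadjusted p under 0.05 on the higher side, against 1.24% of all genes: Wfs1, Rgs14 of CA2 neurons (0.25 ± 0.10) and Man1a (0.42 ± 0.17).

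Among synaptic genes the differences were small. The lists with the highest medians were postsynaptic scaffolds and kinases (0.07, 14 of 22 above 0), vesicle and release machinery (0.07, 25 of 34 above 0) and AMPA, NMDA and kainate receptors (0.07, 11 of 15 above 0), where 54.2% of all genes were above 0. Of 6 metabotropic glutamate receptors 3 were above 0 and 3 below. These medians depended on single arrays and on the choice of feature: the receptor median was 0.02 without sedentary replicate 2, the vesicle and scaffold medians were 0.03 and 0.04 without exercised replicate 1, and the scaffold median was 0.01 with every feature counted. Camk2a, the alpha subunit of the kinase that drives synaptic potentiation, had 15.83, 15.84, 13.80, 15.95 and 15.15 on exercised arrays, against 14.19, 14.54, 16.00, 13.66 and 14.18 on sedentary arrays. The value of 16.00 is at the top of the scale, and both arrays numbered 3 again lay with the other group. Camk2a differed by 0.80 ± 0.47, its other feature by -0.10, and without both arrays numbered 3 it differed by 1.55 ± 0.22. Dlg4, which encodes the scaffold PSD-95, had 10.17, 10.002, 8.83, 9.87 and 9.72 on exercised arrays, against 8.68, 9.02, 10.16, 8.35 and 9.20 on sedentary arrays, and its other feature differed by 0.42. Dlg4 differed by 0.64 ± 0.33, and by 1.13 ± 0.18 without both arrays numbered 3.

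Other synaptic genes had tighter values. Dlgap3, a scaffold partner of PSD-95, differed by 0.25 ± 0.11, with 14.60, 14.42, 14.36, 14.55 and 14.32 on exercised arrays against 14.43, 13.93, 14.11, 14.15 and 14.41 on sedentary arrays. The AMPA receptor subunit Gria1 differed by 0.02 (interval -0.18 to 0.23), and the NMDA receptor subunit Grin2b by 0.04 (-0.31 to 0.38). Syt2, a fast calcium sensor of release, was at the floor in exercised replicate 3 and in 4 sedentary arrays, so its difference of 0.44 ± 0.14 depends on the floor. The mean of the vesicle list was 12.28 ± 0.03 (SD, n = 5) on exercised and 12.22 ± 0.06 on sedentary arrays, with overlap. Gap43, the axonal growth protein, differed by 0.22 ± 0.17.

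Lists of inhibitory and modulatory transmission had medians near 0. GABA receptors and synthesis had a median of -0.02 with 15 of 15 intervals within 1.5-fold. Among 16 interneuron markers, Htr3a, the ionotropic serotonin receptor of a class of interneurons, had 8.48, 8.33, 8.41, 8.38 and 7.46 on exercised arrays, against 8.79, 8.62, 8.95, 8.63 and 8.73 on sedentary arrays. The groups did not overlap and the difference was -0.53 ± 0.17, with exercised replicate 5 the lowest. Npy, the neuropeptide of another class, had 10.75, 9.91, 10.05, 10.71 and 10.27 on exercised arrays, against 9.98, 9.92, 9.73, 9.79 and 10.23 on sedentary arrays, a difference of 0.41 ± 0.17. Both had an adjusted p of 1 by limma. Cholinergic genes (14 members, median 0.03) and receptors of serotonin, noradrenaline and dopamine (16 members, median 0.04) had no member at an unadjusted p under 0.05. Of all genes 3.05% were so, a share that can leave none in lists of this size.

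Energy metabolism had tight limits. All 26 genes of glycolysis and lactate, all 20 of the TCA cycle, all 35 complex I subunits and all 17 ATP synthase genes had intervals within 1.5-fold. Of complexes II to IV 29 of 31 did. The medians were 0.04, 0.01, 0.03, 0.00 and -0.01 in that order. The mean levels of these lists lay in the brightest of 4 equal classes of genes, where 96.4% of all genes had an interval within 1.5-fold. Glycolysis had 18 of 26 members above 0, of which Pfkl, the liver-type phosphofructokinase, was at an unadjusted p under 0.05 (0.27 ± 0.11). Of all genes 1.24% were so on the higher side. Pfkl had 12.40, 12.48, 12.74, 12.59 and 12.49 on exercised arrays, against 12.07, 12.25, 12.49, 12.07 and 12.48 on sedentary arrays. All 75 mitochondrial ribosomal proteins and all 39 proteasome subunits also had intervals within 1.5-fold, with medians of 0.03 each. Both lists had mean levels in the same brightest class. Antioxidant enzymes had 24 of 33 members below 0 and a median of -0.05. Catalase (Cat) differed by -0.14 (interval -0.32 to 0.04) and the mitochondrial superoxide dismutase Sod2 by 0.04 (-0.14 to 0.22).

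Cytosolic ribosomal proteins showed the most uniform direction of the lists with over 30 members. Of 74 members 70 differences were below 0 and 4 above, where 45.8% of all genes were below 0, and the median was -0.10. At an unadjusted p under 0.05 there were 3 members, all lower: Rpl9, Rpl23 and Rpl22, against 1.81% of all genes. Rpl23 differed by -0.24 and its other feature by -0.02, and Rpl22 by -0.22 and its other feature by -0.05. The list's mean was 13.66, 13.69, 13.53, 13.68 and 13.76 on exercised arrays, against 13.78, 13.80, 13.77, 13.74 and 13.73 on sedentary arrays. Exercised replicate 3 was the lowest of the 10, exercised replicate 5 lay within the sedentary range, and the means were 13.66 ± 0.09 (SD, n = 5) in exercised and 13.77 ± 0.03 in sedentary mice. Intervals were within 1.5-fold for 72 of the 74. Rpl9, of the large subunit, had 15.59, 15.59, 15.49, 15.59 and 15.55 on exercised arrays, against 15.68, 15.72, 15.75, 15.79 and 15.72 on sedentary arrays, a difference of -0.17 ± 0.07 with no overlap; its other feature differed by -0.01. Members of 1 list share the same 10 arrays, so their count is not a count of independent results. In 5 of them a value reached the top of the scale on some array, ribosomal genes have near-identical copies elsewhere in the genome, and which copies their probes read was not tested.

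Ribosomal protein genes typically begin transcription at a cytosine inside a run of pyrimidines, through which their translation is adjusted to growth signals. The starts of 4 members with lower values in exercised mice show it in the RefSeq promoter table of assembly GRCm38.p6, here in capitals, as a C followed by at least 4 pyrimidines within 3 bases of the start. They were taken by low p among the members with such a run. The run at the start is a known feature of the family, although most windows of the list lacked it as defined here. Whether the run and a lower level go together was not tested. Rpl12 lies at chr2:32961692-32961731 (+ strand), Rps9 at chr7:3704021-3704060 (+), Rps21 at chr2:180257359-180257398 (+) and Rps27l at chr9:66946066-66946105 (+).
Rpl12: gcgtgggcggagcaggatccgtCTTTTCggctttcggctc
Rps9: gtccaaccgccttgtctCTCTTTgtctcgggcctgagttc
Rps21: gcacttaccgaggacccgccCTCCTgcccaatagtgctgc
Rps27l: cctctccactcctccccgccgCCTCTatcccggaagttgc
Such a run was found in 25 of 73 windows of the list (34.2%), against 11.5% of all 32851 windows of the table; 61 of the 74 genes had a window. Rpl12 differed by -0.22 ± 0.10, Rps9 by -0.16 ± 0.08, Rps21 by -0.17 ± 0.09 and Rps27l by -0.21 ± 0.11. None passed the test.

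Protein folding genes were split. Of 25 heat shock genes 16 were below 0 and 9 above, with a median of -0.11, and 4 were at an unadjusted p under 0.05 on the lower side and 1 on the higher side, where all genes had 1.81% and 1.24%. Cryab, a small heat shock protein of glia, had 11.05, 11.31, 11.70, 11.17 and 11.79 on exercised arrays, against 11.96, 11.94, 11.75, 11.89 and 11.51 on sedentary arrays, a difference of -0.41 ± 0.15. The mitochondrial chaperone Hspd1 differed by -0.19 ± 0.08. Hspa1l, on the other side, had 6.33, 5.88, 6.75, 6.70 and 6.95 on exercised arrays, against 6.21, 5.96, 5.30, 6.53 and 5.29 on sedentary arrays, near the floor. The median of the heat shock list was -0.05 without exercised replicate 3. Genes of the ER stress response had a median of -0.02, autophagy and lysosome of -0.02 and insulin, mTOR and FoxO signalling of -0.02. In the last list, Tsc1 (-0.21 ± 0.08), Foxo3 (-0.26 ± 0.11) and Foxo1 (-0.28 ± 0.13) were at an unadjusted p under 0.05 on the lower side, 3 of 24 against 1.81% of all genes. The 3 other features of Tsc1 differed by -0.02 to 0.20, and that of Foxo1 by -0.09. Foxo3 was near the floor, with means of 5.48 on exercised and 5.74 on sedentary arrays.

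**Figure D4:**
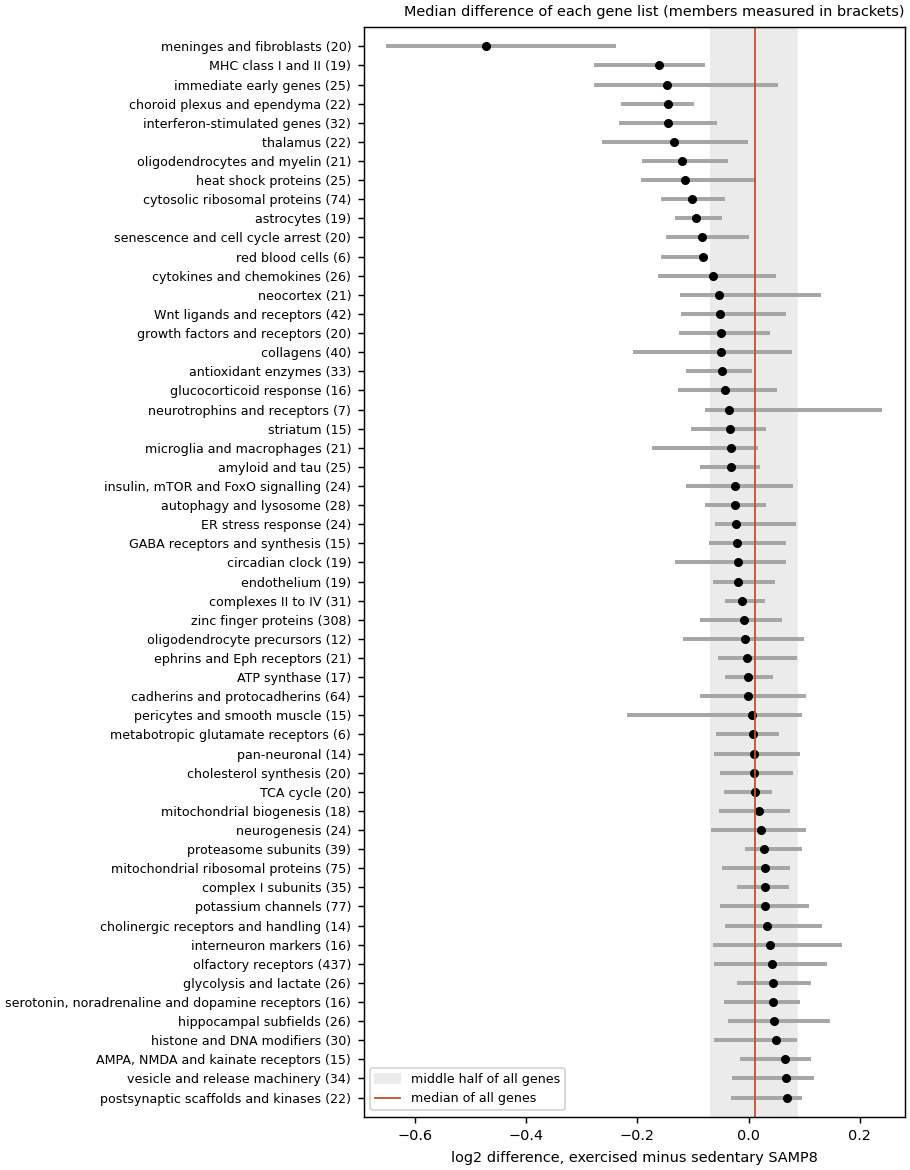
Median log2 difference, exercised minus sedentary SAMP8 (horizontal axis; points), of each of 56 gene lists, with a grey bar from the lower to the upper quartile of the members; the shaded band spans the quartiles of all genes and the line is their median, 0.01. Meninges and fibroblasts stand lowest at -0.47, and 47 lists lie between -0.1 and 0.1.

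Interferon-stimulated genes, which defend cells against viruses, and MHC genes, which present peptides to T cells, had negative medians, with wide spread between arrays. Of 32 interferon-stimulated genes 27 were below 0 and 5 above, where 45.8% of all genes were below 0, and the median was -0.15. At an unadjusted p under 0.05 there were 4, all lower, against 1.81% of all genes. The list's mean was 7.60, 7.39, 7.34, 7.36 and 7.36 on exercised arrays, against 7.44, 7.33, 7.88, 7.75 and 7.41 on sedentary arrays. Sedentary replicates 3 and 4 were the highest, and the other sedentary arrays, between 7.33 and 7.44, lay among the exercised ones. Without those 2 arrays, an alternative chosen after seeing the data, the list's median was 0.06, and without sedentary replicate 3 alone it was -0.07. Those arrays were left out because their interferon means were high, so a smaller difference followed from the choice.

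The 4 members shown next carry, in RefSeq's promoter table of GRCm38.p6, the interferon response motif GAAANNGAAA, searched on both strands and in capitals as the gene's own strand reads it. They were taken by low p among the members with the motif, which is known to bind the factors that interferon activates. Whether the motif and a lower level go together was not tested. Isg15, a ubiquitin-like modifier, lies at chr4:156200862-156200921 (- strand), Gbp2, a guanylate-binding protein, at chr3:142620579-142620638 (+), Ddx58, the RNA sensor RIG-I, at chr4:40239806-40239848 (-) and Cxcl10, a T cell chemokine, at chr5:92349068-92349127 (-).
Isg15: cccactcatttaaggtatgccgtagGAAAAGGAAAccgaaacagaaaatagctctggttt
Gbp2: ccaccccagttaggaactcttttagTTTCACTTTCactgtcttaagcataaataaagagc
Ddx58: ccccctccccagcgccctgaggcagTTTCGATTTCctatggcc
Cxcl10: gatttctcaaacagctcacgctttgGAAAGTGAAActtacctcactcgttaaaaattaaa
Each window holds 250 bases before the start and 50 after it. The motif begins at -78, -59 and -213 from the start in Isg15, Gbp2 and Cxcl10. In Ddx58 it begins at 2, after the start. The motif was in 16 of 31 windows of the list (51.6%), against 3.44% of all 32851 windows of that length. Of the 32 genes 24 had a window. Isg15 had 6.51, 6.61, 6.72, 6.46 and 6.40 on exercised arrays, against 6.64, 6.70, 7.15, 7.02 and 6.95 on sedentary arrays, a difference of -0.35 ± 0.11. Gbp2 differed by -0.37 ± 0.13 and Ddx58 by -0.42 ± 0.14, but the other feature of Ddx58 differed by 0.27. Cxcl10 had 7.04 and 7.45 on sedentary replicates 3 and 4, against 6.42 at most on the other 8 arrays, and differed by -0.46 ± 0.32.

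Of 19 MHC genes 16 were below 0 and 3 above, where 45.8% of all genes were below 0, and the median was -0.16. At an unadjusted p under 0.05 there were 3, all lower, against 1.81% of all genes. H2-Ab1, a class II chain of antigen-presenting cells, had 6.48, 6.23, 6.14, 6.21 and 6.56 on exercised arrays, against 6.74, 6.93, 6.997, 6.55 and 6.41 on sedentary arrays. The class I gene H2-Q7 had 10.42, 10.38, 10.48, 10.56 and 10.86 on exercised arrays, against 10.82, 11.01, 11.16, 10.61 and 10.81 on sedentary arrays. In both, exercised replicate 5 was the highest of its group and overlapped the sedentary arrays; the differences were -0.40 ± 0.13 and -0.34 ± 0.12. B2m, the shared light chain of class I, differed by -0.31 ± 0.14, and its 11 other features by -0.21 to -0.08. The list's mean was 8.10, 8.06, 8.09, 8.10 and 8.35 on exercised arrays, against 8.32, 8.37, 8.51, 8.15 and 8.21 on sedentary arrays. MHC genes are a multigene family, and which members their probes read was not tested. Cytokines and chemokines had a median of -0.06, with Il6st, the shared receptor of the IL-6 family, at -0.21 ± 0.09.

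Markers of the meninges and of fibroblasts had the lowest median of the 56 lists. Of 20 members 19 were below 0 and 1 above, the median was -0.47, and 7 were at an unadjusted p under 0.05, all lower, against 1.81% of all genes. The list's mean was 8.99, 9.20, 8.997, 8.93 and 9.82 on exercised arrays, against 9.57, 9.65, 10.04, 9.59 and 9.31 on sedentary arrays. Exercised replicate 5 was the second highest of the 10, and without it the other exercised arrays lay below every sedentary array. The means were 9.19 ± 0.37 (SD, n = 5) in exercised and 9.63 ± 0.26 in sedentary mice. Ogn, the matrix proteoglycan osteoglycin, had 8.41, 9.37, 7.70, 8.40 and 9.67 on exercised arrays, against 9.61, 9.65, 10.48, 9.83 and 8.73 on sedentary arrays, a difference of -0.95 ± 0.38. Aldh1a2, the retinoic acid enzyme of the meninges, differed by -0.73 ± 0.29 and Mgp, matrix Gla protein, by -0.60 ± 0.24. The limits of this list were wide, since only 4 of its 20 intervals lay within 1.5-fold and 10 within 2-fold.

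The choroid plexus, which makes cerebrospinal fluid and adjoins the hippocampus, varied most between arrays. The mean of its 22 markers was 7.11, 7.93, 8.70, 7.49 and 9.18 on exercised arrays, against 9.22, 8.67, 8.29, 7.67 and 7.39 on sedentary arrays. The arrays of each group spanned nearly the whole range, and the median of the list, -0.15, was 0.10 without exercised replicate 1 and -0.39 without exercised replicate 5. Ttr, transthyretin, differed by -0.39 (interval -2.40 to 1.62), and Kl, klotho, by -0.14 (-1.23 to 0.94). With the meningeal and choroid plexus means of each array as covariates, an alternative chosen after seeing the data, the median difference was 0.00 for the interferon list, 0.00 for the MHC list and -0.03 for the ribosomal list, and the 95% intervals were wider (median 0.34 to either side). Medians in the same fit were -0.02 for heat shock genes, -0.03 for astrocyte markers, -0.14 for myelin markers and -0.28 for immediate early genes. Without covariates they were -0.11, -0.09, -0.12 and -0.15 in that order. Both means entered that fit together, so their parts cannot be told apart. The meningeal mean itself was 9.19 in exercised and 9.63 in sedentary mice, so the fit also removes group difference that goes with it. On sedentary replicate 4 the meningeal mean was 9.59, within the range of the other sedentary arrays, and the interferon mean was 7.75. Any link between the meningeal and interferon levels was not tested.

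**Figure D5:**
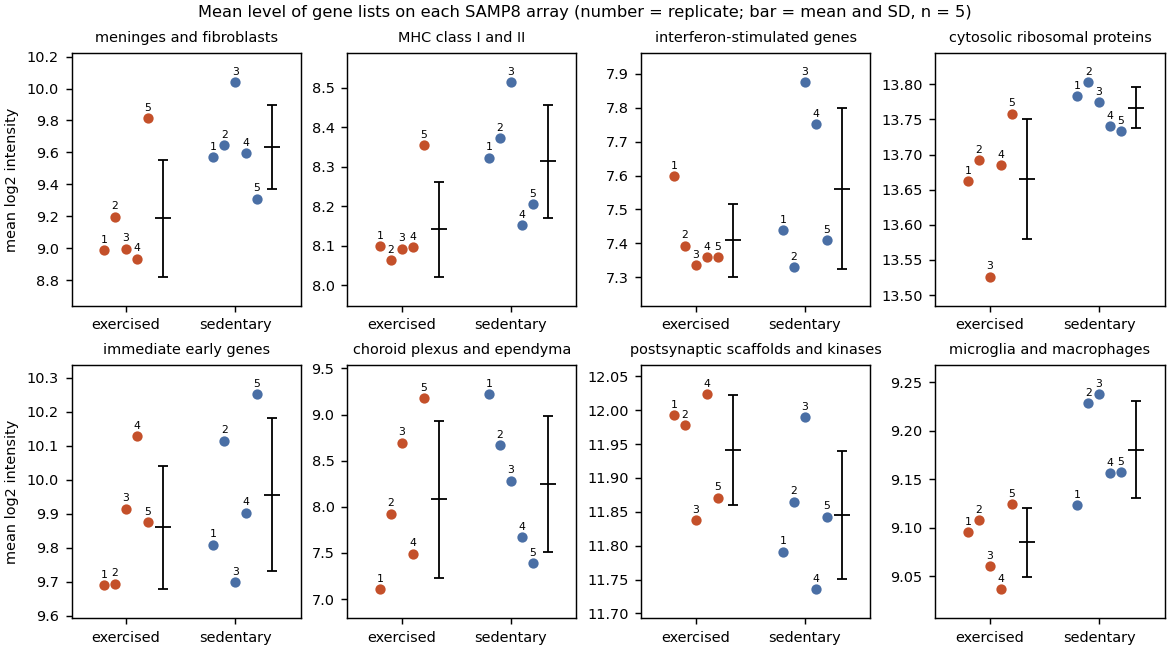
Mean log2 intensity (vertical axis) of 8 gene lists on each SAMP8 array, exercised at the left and sedentary at the right of each panel, with the replicate number above each point and the mean ± SD (n = 5) as a bar. In no list are the groups fully apart; exercised replicate 5 lies with the sedentary arrays in the meningeal and MHC lists, and sedentary replicates 3 and 4 stand above the rest in the interferon list.

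The glial lists differed by small amounts and not alike. Of 19 astrocyte markers 17 were below 0 and 2 above, with a median of -0.09, and their level averaged 11.26 ± 0.03 (SD, n = 5) in exercised and 11.33 ± 0.05 in sedentary mice. With the mean of all features of a gene the astrocyte median was -0.04. The largest difference in that list went the other way: Serpina3n, a protease inhibitor of reactive astrocytes, had 10.70, 10.75, 11.04, 11.38 and 10.81 on exercised arrays, against 10.35, 10.66, 10.65, 10.42 and 10.92 on sedentary arrays (0.34 ± 0.15). Gfap differed by -0.10 (interval -0.34 to 0.15). Oligodendrocyte precursor markers were divided evenly, 6 above 0 and 6 below. Of 21 markers of microglia and macrophages 12 were below 0 and 9 above, with a median of -0.03, and its level averaged 9.09 ± 0.04 in exercised and 9.18 ± 0.05 in sedentary mice, with exercised replicate 5 and sedentary replicate 1 meeting at 9.12. Laptm5, a lysosomal protein of blood-derived cells, had 8.28, 7.88, 8.71, 8.39 and 7.85 on exercised arrays, against 8.98, 9.14, 8.39, 9.04 and 8.98 on sedentary arrays (-0.69 ± 0.18), whereas Aif1, the microglial marker Iba1, differed by 0.08 (-0.14 to 0.29).

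Oligodendrocyte and myelin markers had 16 of 21 members below 0 and a median of -0.12. Mbp, myelin basic protein, had 15.45, 15.53, 15.67, 15.20 and 15.52 on exercised arrays, against 15.73, 15.92, 15.59, 16.00 and 15.44 on sedentary arrays, a difference of -0.26 ± 0.12 (interval -0.53 to 0.01), and its 11 other features were also lower (-0.31 to -0.07). The sedentary value of 16.00 is at the top of the scale. Exercised replicate 4 had the lowest mean of the list, 9.84, and without it the median was -0.05. Markers of the thalamus, which lies beneath the hippocampus, had a median of -0.13, with exercised replicate 4 again lowest at 8.24, and -0.06 without that array. The 21 neocortex markers had a median of -0.05, with exercised replicate 1 highest at 9.52. The part of tissue from around the hippocampus in the myelin difference was not tested. Of 19 endothelial markers 12 were below 0; Pecam1, the endothelial adhesion protein, had 7.15, 6.96, 7.31, 7.33 and 7.32 on exercised arrays, against 7.52, 7.67, 7.45, 7.48 and 7.34 on sedentary arrays (-0.28 ± 0.10), without overlap, and its 9 other features were also lower (-0.21 to -0.06). Pericyte and smooth muscle markers had a median of 0.01, but -0.11 with the mean of all features of a gene and -0.15 with every feature counted. In that list the chosen feature of Acta2, smooth muscle actin, differed by 0.18 and its 12 other features by -0.48 to -0.01. Red blood cell markers had a median of -0.08.

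Genes of ageing and Alzheimer's disease had medians below 0 and none at an unadjusted p under 0.05 in either list. Of all genes 3.05% were so, a share that can leave none in lists of this size. Of 25 genes of amyloid and tau 17 were below 0 with a median of -0.03, and App differed by -0.07 (interval -0.27 to 0.14). The 12 other features of App differed by -0.08 to 0.15, and only 2 of them were below 0. Of 20 genes of senescence and cell cycle arrest 15 were below 0 with a median of -0.08. Cdkn1a, which encodes p21, differed by 0.00 (interval -0.41 to 0.42), with exercised replicate 1 at 7.42 and the other exercised arrays at 6.41 to 6.48. The 9 other features of Cdkn1a were all higher in exercised mice (0.06 to 0.24). Il1b differed by -0.22 (-0.63 to 0.20). Regulatory families were similarly spread. The circadian clock had 8 of 19 members above 0 and a median of -0.02, with Rora, a nuclear receptor of the clock, at -0.27 ± 0.11. Rora had 10.05, 10.36, 10.05, 9.85 and 10.01 on exercised arrays, against 10.29, 10.64, 10.17, 10.32 and 10.26 on sedentary arrays. Exercised replicate 2 was the 1 exercised array within the sedentary range. Genes of the glucocorticoid response had a median of -0.04 with none at an unadjusted p under 0.05 (3.05% of all genes were so). Cholesterol synthesis had a median of 0.01 with all 20 intervals within 1.5-fold. Histone and DNA modifiers had 17 of 30 above 0 and a median of 0.05. In that list the DNA methyltransferase Dnmt3a had 10.53, 10.60, 10.85, 10.92 and 9.62 on exercised arrays, against 11.40, 10.99, 11.03, 10.57 and 10.98 on sedentary arrays, with exercised replicate 5 lowest (-0.49 ± 0.23). The other features of Dnmt3a differed by -0.06 and 0.05.

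Membrane and adhesion families had medians near 0. Potassium channels had 49 of 77 above 0 and a median of 0.03, with 71 intervals within 1.5-fold. Their 2 members at an unadjusted p under 0.05, both higher (1.24% of all genes were so), were Kcnk2, the two-pore channel TREK-1 (0.19 ± 0.08), and Kcng4, a modifier of Kv2 channels (0.27 ± 0.11). Cadherins and protocadherins were divided evenly, 32 above 0 and 32 below. Of 42 Wnt ligands and receptors 19 were above 0 with a median of -0.05, and Wnt2, a secreted Wnt ligand, differed by 0.38 ± 0.16. Wnt2 had 9.89, 9.88, 10.47, 9.83 and 9.74 on exercised arrays, against 9.37, 9.45, 9.57, 9.51 and 10.03 on sedentary arrays, where replicate 5 alone reached the exercised range. Collagens had 25 of 40 below 0 and a median of -0.05. Col1a1, Col1a2 and Col3a1 (-0.57 ± 0.23), which the meninges list holds too, were the members lower at an unadjusted p under 0.05. Col22a1 was the member higher at that p (0.40 ± 0.15). Of all genes 1.81% were lower and 1.24% higher at that p.

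Lists with no known link to exercise were read as well. The 437 olfactory receptors, which are scarcely expressed in brain, had a median of 0.04 with 269 above 0. Of these genes 251 were at the floor on some array, and with the floor at the 20th percentile the median was 0.002. The 308 zinc finger proteins had a median of -0.01 with 145 above 0. Because of their size, and for the receptors their low level, these lists cannot gauge how far a small list of bright genes moves without exercise. Over the 56 lists 21 medians were above 0 and 35 below, and the mean of no list separated the groups.

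Genes with a wide difference between the sedentary lines on these arrays stood near the sedentary SAMP8 level in exercised SAMP8. They were chosen from a comparison that shares the sedentary SAMP8 arrays, so the levels are given side by side and no test joins them. The chemokine Ccl19 was at 13.78 ± 0.17 (SD, n = 5) in exercised SAMP8, 13.70 ± 0.09 in sedentary SAMP8 and 8.10 ± 0.74 in sedentary SAMR1. Ppp1r1a, an inhibitor of protein phosphatase 1, was at 11.78 ± 0.21, 11.68 ± 0.37 and 14.42 ± 0.25 in the same order, and the transcription factor Usf1 at 8.50 ± 0.08, 8.37 ± 0.09 and 10.002 ± 0.18. The intervals of the difference between exercised and sedentary SAMP8 were -0.13 to 0.29 for Ccl19, -0.26 to 0.48 for Ppp1r1a and -0.05 to 0.30 for Usf1. Eif2ak2, the interferon-induced kinase PKR, was at 7.18 ± 0.15, 7.24 ± 0.21 and 6.47 ± 0.20, and the pericyte receptor Pdgfrb at 10.07 ± 0.18, 9.99 ± 0.19 and 9.17 ± 0.20. The intervals of exercised minus sedentary SAMP8 were -0.31 to 0.19 for Eif2ak2 and -0.17 to 0.33 for Pdgfrb.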

How the data were processed

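Hippocampal RNA was measured on 1-colour arrays, 15 in all. Per the labels' protocols, RNA was amplified with Cy3 and hybridised; the submitters' processing notes name limma, with no version. The deposited values are linear intensities that the authors had already normalized between arrays; the scanner, the background correction and the filter behind the 10741 empty entries of 45220 are unstated in the labels. Log2 values were taken from the deposited intensities of the 10 SAMP8 arrays after setting those under the 5th percentile (39.2) to it. Each gene was read from its feature of highest mean (27968 features with 1 symbol, 16401 genes, of which 6970 had several features). Groups came from the sample titles. The R package limma (version 3.58.1, R 4.3.3), with 1 term per group and moderated variances, gave differences, exercised minus sedentary, 95% intervals and Benjamini-Hochberg adjusted p over all genes, two-sided; a call needed an adjusted p under 0.05. The procedure was tested on simulated data. The number of arrays limits the precision.

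The members, the 56 gene lists and the tests were chosen with earlier results of these data known. Genes named were the 15 of lowest p in each direction among characterised genes above the median level, up to 4 of lowest p per list, 30 fixed genes of exercise and ageing (29 had values), the 5 widest differences each way, and list members without overlap. Alternatives were other floors, filters, probe choices, scalings, weights, priors and blocks, and leaving out arrays. Promoter windows are those of the RefSeq table of GRCm38.p6, matched by symbol, with 250 bases before the start and 50 after it.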

Additional observations from a re-analysis of the deposited data

Results flagged for a closer look

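In 15 of 248 sets of 5 values examined (6.05%), 1 array stood clear of the other 4 of its group; chance alone does so in about 1 of 20 sets.

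Among list means, the interferon-stimulated genes were at 7.60 on exercised replicate 1, against 7.34 to 7.39 on the other exercised arrays. The MHC list was at 8.35 on exercised replicate 5, against 8.06 to 8.10 on the others. The potassium channels were at 8.47 on exercised replicate 4, against 8.52 to 8.54. The array that stood high thus differed between the interferon and MHC lists.

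On sedentary replicate 3 alone, Rian was at 11.43 (other sedentary arrays 7.87 to 8.73), Rab5c at 12.50 (7.79 to 8.33), Metrn at 9.41 (11.54 to 12.18), Prmt1 at 9.19 (11.24 to 11.55) and Ppargc1a at 11.57 (11.85 to 11.96). Exercised replicate 3 was the array nearest to the sedentary values in the first 4 of these genes.

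Single values elsewhere were Smarca5 at 9.06 on exercised replicate 5 (other exercised arrays 9.34 to 9.40), Rab31 at 10.16 on exercised replicate 1 (10.50 to 10.58), Gfap at 11.76 on exercised replicate 4 (11.34 to 11.38), Cdkn1a at 7.42 on exercised replicate 1 (6.41 to 6.48) and Il1b at 5.32 on exercised replicate 2 (5.87 to 6.07). Among sedentary arrays they were Scube1 at 10.71 on replicate 5 (9.52 to 9.72) and Malat1 at 14.35 on replicate 2 (14.93 to 15.15).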

How the results depend on the processing

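No gene was called in any setting run, and the lowest adjusted p by limma was 0.0914, without both arrays numbered 3. Of 1654 values of 68 followed genes under these alternatives, 1604 kept their direction and 50 did not. Except for Ogn, those 50 are of genes whose 95% interval includes 0 with all arrays, and the cause was not tested. Ogn changed direction only with the meningeal and choroid plexus means as covariates, and it is a member of the meningeal list.

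With single arrays left out, genes at an unadjusted p under 0.05 numbered 309 (without sedentary replicate 2) to 747 (without exercised replicate 5), those without overlap 97 to 222 with the same arrays, and lists with a median beyond 0.1 numbered 5 (without exercised replicate 4) to 13 (without sedentary replicate 5), against 9 with all arrays. The choroid plexus median ran from -0.387 to 0.102, and differences from -0.0931 to 0.0148 for Igf1, -0.0607 to 0.0815 for Ppargc1a, -0.0353 to 0.182 for Egr1, -0.161 to 0.0335 for Prox1, -0.101 to 0.478 for Syn1, -0.0602 to 0.134 for Grin2b, -0.0198 to 0.0802 for Gria1, -0.951 to 0.277 for Ttr, -0.485 to 0.166 for Kl, -0.192 to 0.0832 for Cdkn1a and -0.102 to 0.00363 for App. The medians of the meningeal (-0.688 to -0.357), MHC (-0.237 to -0.105), interferon (-0.178 to -0.066) and ribosomal (-0.123 to -0.074) lists stayed below 0 there.

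With every probe as a feature, 923 were at an unadjusted p under 0.05 and 120 without overlap, of 27968 features. With the mean of all probes, App was 0.0311, Gfap 0.0172, Gria1 -0.0314 and Prox1 0.0508. Array weights gave 0.0026 for Prox1, and log2 of value plus 50 left 6 lists beyond 0.1. With meningeal and choroid plexus covariates 3 lists were beyond 0.1, the medians were 0.00465 (interferon), 0.00174 (MHC), 0.0059 (meninges), 0.0352 (choroid plexus) and -0.0286 (AMPA, NMDA and kainate receptors), and differences were 0.0246 (Ogn), 0.0490 (Igf1), -0.0383 (Ppargc1a), -0.105 (Egr1), 0.00125 (Dcx), 0.0649 (Prox1), -0.432 (Syn1), -0.0215 (Grin2b), 0.0827 (Kl) and 0.0274 (Il1b). Without both arrays numbered 3, 376 genes did not overlap, and Ppargc1a was -0.0413, Egr1 -0.0496, Dcx 0.0353, Prox1 0.109 and Syn1 -0.130. Without sedentary replicates 3 and 4, 465 did not overlap, 6 lists were beyond 0.1, the interferon median was 0.0553, and Ppargc1a was -0.0459, Egr1 -0.0519, Prox1 0.104, Syn1 -0.0721 and Grin2b -0.0186. Fewer arrays make a lack of overlap more frequent by construction.

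The groups share replicate numbers, but same-numbered arrays deviated together only for number 4 (r = 0.348; -0.095 to 0.046 for the other numbers), and 1 of 5 exercised arrays correlated best with its own number. With the replicate number as a block, 0 genes were called, the lowest adjusted p by limma was 0.998 and 561 genes were at an unadjusted p under 0.05. Array number and signal over background, not sequencing depth, limit these values; dim genes near the floor have differences that depend on it.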
